A study of Mus musculus with 9 samples.

Results

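Neurotrophins, the related glial cell line derived neurotrophic factor and their receptors were described in cultured adipose-derived stem cells (ASCs), by the 8 genes Ngfr, Bdnf, Ntf3, Ntrk2, Ntrk3, Sort1, Gdnf and Gfra1. They were taken by gene name from the 54532 genes with counts, and all 8 were found. They were chosen by their read counts in the same 9 libraries, with the differences between the 3 groups already known. Their differences between groups are therefore given as values with standard errors and without p-values. Bulk mRNA of ASCs from C57BL/6 mice was sequenced, with 3 libraries from subcutaneous (Sub-ASC), 3 from abdominal (Ab-ASC) and 3 from perivascular adipose tissue (PVASC). All groups were passaged cultures in the same stem cell medium, which held serum, leukemia inhibitory factor and FGF, and no group was treated or genetically altered. Age, sex and the number of mice behind each library are not given in the sources used here, so errors measure only the spread between libraries, which may be technical.

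Neurotrophins are secreted as precursors that are cut to mature growth factors, and they are best known for keeping peripheral neurons alive. Mature forms signal through the Trk receptor tyrosine kinases, with BDNF and NT-4 preferring TrkB (Ntrk2) and NT-3 preferring TrkC (Ntrk3). The receptor p75NTR (Ngfr), a member of the TNF receptor superfamily, binds every neurotrophin and takes up the uncut precursors together with sortilin (Sort1). GDNF acts through a separate pair, the lipid-anchored co-receptor GFRα1 (Gfra1) and the kinase RET. In adipose tissue and other stroma, p75NTR is used as a surface marker of mesenchymal stem cells (CD271), and it also marks Schwann cells and neural crest cells.

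Reads counted per library ranged from 20524173 to 29881036. Counts were scaled by TMM and are given as CPM, a read share that is comparable between libraries, and levels are compared between genes only as FPKM, which also divides by the listed gene length. At these depths 3 reads, taken here as the smallest measurable count, were 0.0916 to 0.161 CPM. Such limits cover counting error only. Ab-ASC replicate 1 stood apart from the other Ab-ASC libraries, with squared differences of 29.3 and 18.5 times the sampling noise per gene, where no pair in the other groups exceeded 8.09. All 10 marker genes listed for ASCs were measured in every library, with summed levels of 18700 to 19800 CPM in Sub-ASCs, 6740 to 6910 CPM in Ab-ASCs and 4770 to 4920 CPM in PVASCs. Single markers moved in both directions, and for PVASCs against Sub-ASCs 2 were higher (Thy1 and Eng) and 8 lower, beside 34.7% and 35.7% of all genes. Dcn, a matrix proteoglycan of fibroblasts, was at 8850 CPM in Sub-ASCs and 112 CPM in PVASCs, whereas Thy1 (CD90) was at 332 and 882 CPM and Eng (CD105) at 108 and 328 CPM. The groups also differed in dividing cells, with 8 marker genes summing to 56.5 to 64.4 CPM in Sub-ASCs and to at least 649 CPM in every other library.

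Ngfr led the 8 genes in Sub-ASCs and PVASCs, Ntrk2 was read almost only in Sub-ASCs and Bdnf mostly in PVASCs, and for this contrast the bases just before a listed transcription start of each are shown with the motifs that were searched for. Sequences are from RefSeq on GRCm38.p6, run 5′ to 3′ on the strand of the gene, and carry in capitals each GC box (GGGCGG) and each E-box (CANNTG) on either strand.
Ngfr, chr11:95587736-95587948, minus strand: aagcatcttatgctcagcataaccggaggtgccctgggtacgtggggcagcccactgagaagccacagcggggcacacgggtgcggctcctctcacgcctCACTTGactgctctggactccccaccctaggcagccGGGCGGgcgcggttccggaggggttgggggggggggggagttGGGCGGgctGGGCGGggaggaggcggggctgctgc
Ntrk2, chr13:58806319-58806568, plus strand: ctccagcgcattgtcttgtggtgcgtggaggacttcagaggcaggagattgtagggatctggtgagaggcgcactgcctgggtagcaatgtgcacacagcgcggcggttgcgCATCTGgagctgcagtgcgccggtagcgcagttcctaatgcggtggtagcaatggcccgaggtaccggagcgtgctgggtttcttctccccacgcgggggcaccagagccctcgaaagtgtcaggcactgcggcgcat
Bdnf, chr2:109674450-109674699, plus strand: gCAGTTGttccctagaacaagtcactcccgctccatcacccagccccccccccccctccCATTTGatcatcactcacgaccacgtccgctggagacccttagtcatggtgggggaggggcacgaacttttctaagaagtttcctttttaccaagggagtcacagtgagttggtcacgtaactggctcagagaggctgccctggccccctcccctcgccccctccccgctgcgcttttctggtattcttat
The Ngfr stretch is 213 bases long, since the 37 bases nearest to the RefSeq start are exon in GENCODE M21, and the others are 250 bases. It held 3 GC boxes and 1 E-box, and the whole window of 250 bases 4 and 2. Ntrk2 had no GC box and 1 E-box, and the first of the 7 listed starts of Bdnf had no GC box and 2 E-boxes. Of the other starts of Bdnf, the second had 2 GC boxes and the fourth had 1. Over 32851 listed mouse promoters of 250 bases, 32.7% held a GC box and 66.2% an E-box. None of the 14 windows listed for 6 of the 8 genes held the T-box half-site AGGTGTGA, which 1.12% of all windows held, and the TATA box TATAAA was found in 1 window of Gdnf and in 12.4% of all windows. The CRE half-site TGACG had a match in the third window of Bdnf and the first of Gdnf, and in 17.8% of all windows. The Ngfr window of 250 bases had 16 CpG dinucleotides and that of Ntrk2 19, against a median of 6 over all windows. Such matches describe letters and are not binding sites.

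Ngfr was the most abundant of the 8 transcripts in Sub-ASCs and PVASCs and was close to absent from Ab-ASCs. Ngfr (ENSMUSG00000000120) occupies chromosome 11 between bases 95568818 and 95587735 of GRCm38, minus strand, and overlaps no other listed gene. In the Sub-ASC libraries 4997, 5227 and 5529 reads were counted on it, in the PVASC libraries 1940, 1832 and 1854, and in the Ab-ASC libraries 11, 14 and 20. The groups did not overlap, and the order was Sub-ASCs, PVASCs and then Ab-ASCs in every library. Mean levels were 210.1 ± 4.57 CPM, 60.1 ± 1.71 CPM and 0.701 ± 0.165 CPM (SD, n = 3). This is 3.50-fold more in Sub-ASCs than in PVASCs, 85.7-fold more in PVASCs than in Ab-ASCs and 300-fold more in Sub-ASCs than in Ab-ASCs. On the log2 scale the fitted difference was -1.81 (standard error 0.06) for PVASCs against Sub-ASCs, 6.40 (standard error 0.10) for PVASCs against Ab-ASCs and -8.21 (standard error 0.10) for Ab-ASCs against Sub-ASCs. At 59.7 ± 1.26 FPKM (SD, n = 3), Ngfr in Sub-ASCs lay above 95.2% of the 16526 genes with enough reads for testing. In Ab-ASCs it lay above 13.6% of them. In bulk libraries, fewer cells that carry a transcript and less of it in each cell cannot be told apart.

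**Figure D1:**
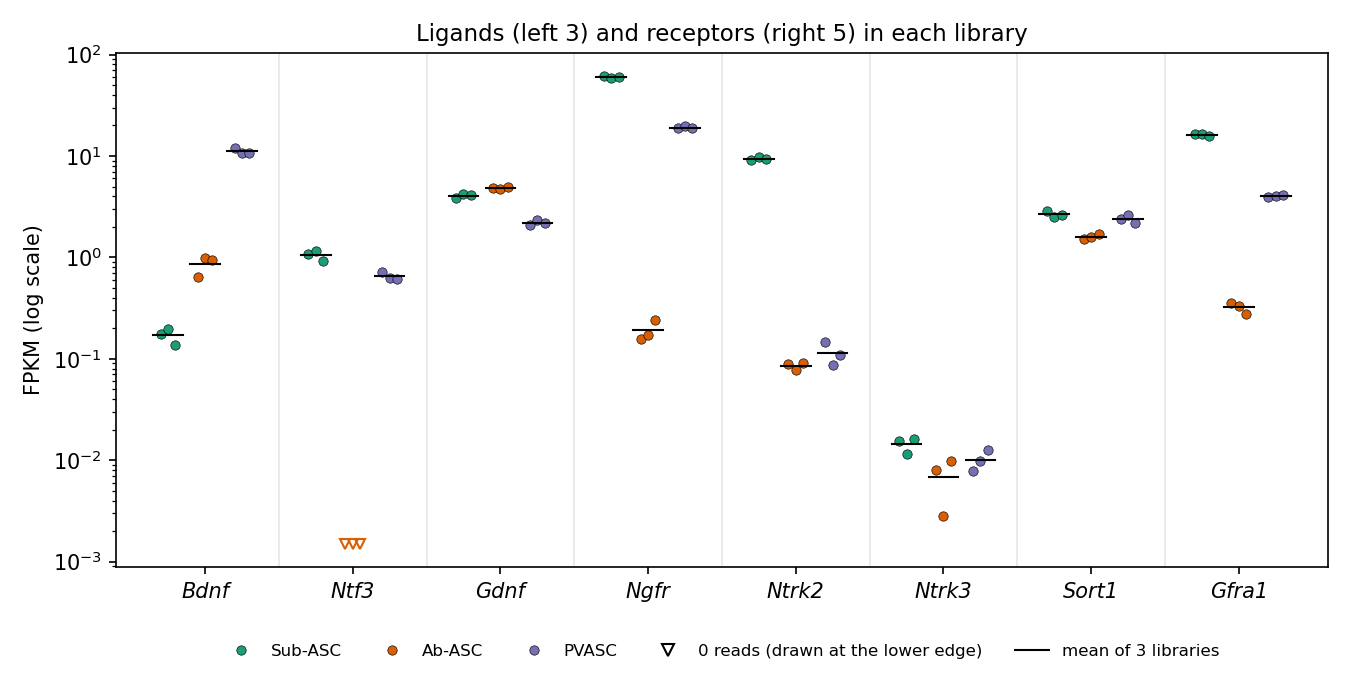
FPKM on a log axis for the 3 ligand genes and the 5 receptor genes, with a point for each library, bars at the group means and open triangles for libraries with 0 reads. Ngfr, Ntrk2 and Gfra1 are highest in Sub-ASCs, Bdnf is highest in PVASCs, and the 3 Ab-ASC libraries have no Ntf3 read.

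TrkB transcripts were found almost entirely in Sub-ASCs. Ntrk2 (ENSMUSG00000055254) extends over chromosome 13 from 58806569 to 59133970, plus strand. It had 4200, 4901 and 4807 reads in the Sub-ASC libraries, 35, 35 and 42 in the Ab-ASC libraries and 84, 45 and 60 in the PVASC libraries. Ab-ASCs and PVASCs overlapped, and both lay far below Sub-ASCs. The means were 185 ± 6.42 CPM in Sub-ASCs, 1.77 ± 0.185 CPM in Ab-ASCs and 1.999 ± 0.527 CPM in PVASCs (SD, n = 3), so that Sub-ASCs had 105-fold more than Ab-ASCs and 92.7-fold more than PVASCs. Between PVASCs and Ab-ASCs the log2 fold change was 0.19 with a standard error of 0.18. Ntrk2 makes both the full-length kinase and truncated receptors without the kinase domain, and counts per gene do not separate them.

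GFRα1, the GDNF co-receptor, followed the order of Ngfr. Gfra1 (ENSMUSG00000025089; chromosome 19, from 58235604 to 58455909, minus strand) had 2139, 2354 and 2316 reads in Sub-ASCs, 646, 604 and 654 in PVASCs and 40, 43 and 36 in Ab-ASCs. No libraries of different groups overlapped. Its means of 90.8 ± 2.25 CPM, 20.3 ± 0.540 CPM and 1.89 ± 0.272 CPM (SD, n = 3) gave 4.47-fold more in Sub-ASCs than in PVASCs and 10.8-fold more in PVASCs than in Ab-ASCs. Its log2 fold change between Ab-ASCs and Sub-ASCs was -5.60 (standard error 0.09).

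The remaining receptors differed less or were rarely read. Sort1, which encodes the sorting receptor sortilin (chromosome 3, from 108284082 to 108361511), was at 20.5 ± 1.42 CPM in Sub-ASCs, 16.6 ± 1.51 CPM in PVASCs and 13.0 ± 0.709 CPM in Ab-ASCs (SD, n = 3). The lowest Sub-ASC library, at 19.1 CPM, was just above the highest PVASC library, at 18.2 CPM, whereas in FPKM the groups overlapped. The largest of its log2 fold changes was -0.66 (standard error 0.09), for Ab-ASCs against Sub-ASCs. On Ntrk3, which encodes TrkC (chromosome 7, from 78175959 to 78738012), only 11, 9 and 13 reads were counted in Sub-ASCs, 5, 2 and 7 in Ab-ASCs and 7, 8 and 11 in PVASCs. This was too few for the count filter, and no fold is given.

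Of the ligands, Bdnf was the gene of PVASCs. Bdnf (ENSMUSG00000048482), between bases 109674700 and 109727007 of chromosome 2, plus strand, had 2243, 1807 and 1914 reads in PVASCs, 81, 144 and 140 in Ab-ASCs and 26, 32 and 23 in Sub-ASCs. Every PVASC library exceeded every Ab-ASC library, and each of those exceeded every Sub-ASC library. The means were 63.5 ± 4.33 CPM, 5.66 ± 1.14 CPM and 1.08 ± 0.192 CPM (SD, n = 3), or 11.2-fold more in PVASCs than in Ab-ASCs and 58.7-fold more than in Sub-ASCs. For Ab-ASCs against Sub-ASCs the log2 fold change was 2.40 (standard error 0.19). The 1 listed gene that overlaps Bdnf had at most 1 read in any library.

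Ntf3, which encodes NT-3 (chromosome 6, from 126101412 to 126166910, minus strand), was low and had no read in Ab-ASCs. It had 44, 51 and 42 reads in Sub-ASCs, 37, 29 and 30 in PVASCs and 0 in each of the 3 Ab-ASC libraries. At 1.83 ± 0.207 CPM in Sub-ASCs and 1.02 ± 0.0948 CPM in PVASCs (SD, n = 3), it was at least 12.8-fold and at least 7.16-fold higher than the level of 3 reads per Ab-ASC library. Between PVASCs and Sub-ASCs the log2 fold change was -0.84 (standard error 0.22).

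Gdnf, on chromosome 15 from 7810846 to 7837575, ran differently, with its highest level in Ab-ASCs. Its reads were 367, 409 and 432 in Ab-ASCs, 338, 399 and 405 in Sub-ASCs and 230, 231 and 232 in PVASCs, which had the largest libraries. Scaled, these were 19.0 ± 0.783 CPM, 15.2 ± 0.618 CPM and 7.41 ± 0.400 CPM (SD, n = 3), with no overlap between groups. The log2 fold change was -1.36 (standard error 0.08) for PVASCs against Ab-ASCs and 0.32 (standard error 0.08) for Ab-ASCs against Sub-ASCs. Gdnf was thus highest where the transcript of its co-receptor Gfra1 was lowest.

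**Figure D2:**
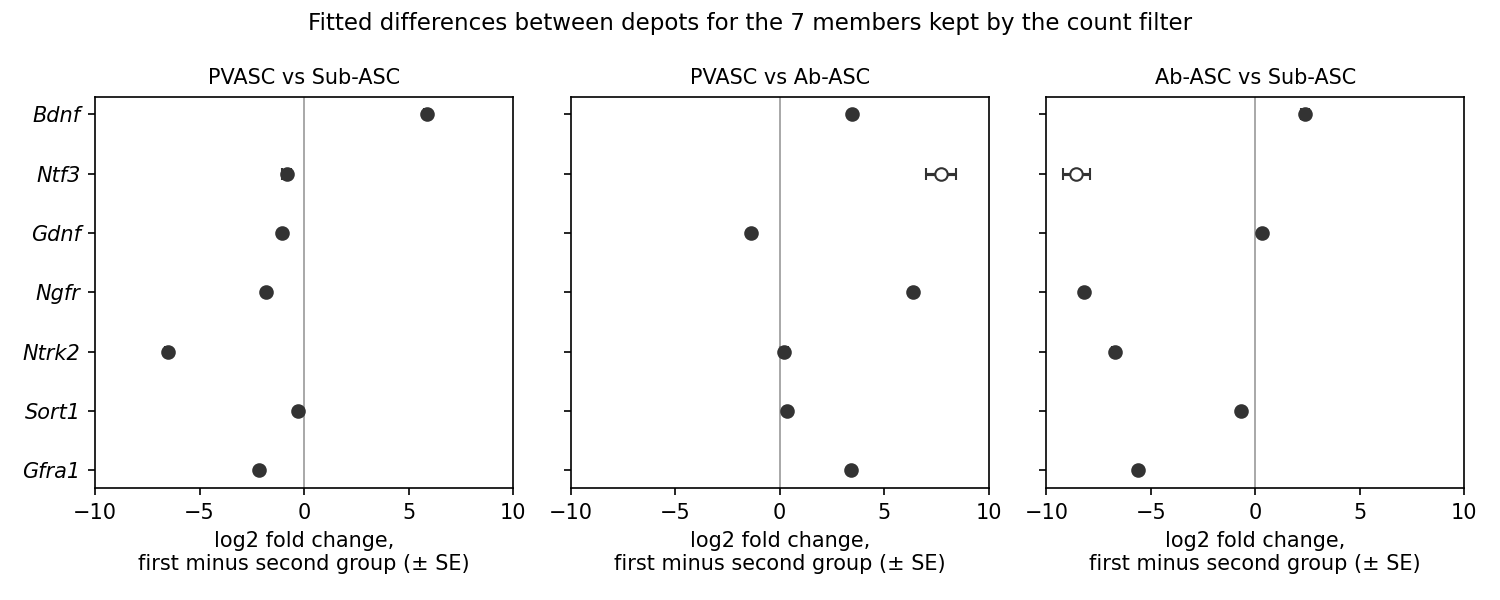
Fitted log2 fold changes with standard errors for the 7 genes that passed the count filter, in each pair of groups, with the direction written as first minus second group. Open points mark Ntf3 against Ab-ASCs, where 1 group has 0 reads and the fitted value depends on the prior count, and the differences range from -8.57 for Ntf3 to 7.73 for the same gene in the other pair with Ab-ASCs.

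Of the 8 genes, 7 passed the count filter. Ntf3 passed through its reads in Sub-ASCs and PVASCs. With an adjusted p under 0.05 as the limit, all 7 were past it for PVASCs against Sub-ASCs, as were 70.4% of all genes tested, and 1 of them was higher in PVASCs. For PVASCs against Ab-ASCs 6 were past it, 5 higher and 1 lower in PVASCs, beside 56.9% of all genes. In Ab-ASCs against Sub-ASCs it was 7, with 2 higher and 5 lower in Ab-ASCs, beside 75.3%. The genes were chosen with these differences known, so nothing is read from the counts. When the log2 fold change also had to be 1 or more in size, 5 members were past the limit in each pair, beside 32.2%, 15.4% and 37.8% of all genes. Their median log2 fold change was -1.04, 3.44 and -5.60 in these pairs, beside -0.01, -0.06 and -0.03 over all genes.

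Per length, the order of the 8 genes differed between depots. In Sub-ASCs receptors led, with Ngfr at 59.7 ± 1.26 FPKM, Gfra1 at 16.2 ± 0.442 FPKM and Ntrk2 at 9.41 ± 0.338 FPKM, ahead of the ligand Gdnf at 4.05 ± 0.164 FPKM (SD, n = 3). Sort1, Ntf3, Bdnf and Ntrk3 followed. In PVASCs the ligand Bdnf, at 11.2 ± 0.787 FPKM, stood second to Ngfr, at 19.1 ± 0.473 FPKM, and Ntrk2 was seventh at 0.113 ± 0.0302 FPKM (SD, n = 3). Ab-ASCs had Gdnf in front at 4.84 ± 0.112 FPKM, then Sort1 at 1.60 ± 0.103 FPKM, and each other member was under 1 FPKM in every library. The only neighbours in these orders whose libraries overlapped were Sort1 and Gdnf in PVASCs, at 2.39 ± 0.209 FPKM and 2.20 ± 0.111 FPKM (SD, n = 3). The listed lengths of Ntrk2 and Ntrk3, 19292 and 30170 bases, hold many alternative exons, so the FPKM of a shorter transcript is understated.

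The partners of these genes were taken from 5 lists that hold none of the 8, and were tested in edgeR by quasi-likelihood, with p-values adjusted after Benjamini and Hochberg over all 16526 genes. Of the 78 partner genes, 70 had enough reads. For PVASCs against Sub-ASCs 60 (85.7%) differed, 36 higher and 24 lower in PVASCs, where 34.7% of all genes were higher and 35.7% lower. PVASCs against Ab-ASCs gave 58 (82.9%), with 18 higher and 40 lower, beside 24.7% and 32.1% of all genes. For Ab-ASCs against Sub-ASCs 56 (80.0%) differed, 36 higher and 20 lower in Ab-ASCs, beside 37.0% and 38.3%. The median log2 fold change of the partners was 0.29, -0.25 and 0.34 in these pairs.

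Among the other ligands, Artn (artemin) was lower in Ab-ASCs, at 1.78 ± 0.581 CPM, than in Sub-ASCs, at 3.87 ± 0.409 CPM (SD, n = 3, adjusted p = 0.000562), and than in PVASCs (adjusted p = 0.000345). For Nrtn (neurturin) only Ab-ASCs against Sub-ASCs passed the limit (log2 fold change -0.87, adjusted p = 0.0201), and without Ab-ASC replicate 1 it did not (adjusted p = 0.0577). Without Sub-ASC replicate 1, Sub-ASC replicate 3 or Ab-ASC replicate 2 the adjusted p for Nrtn was 0.0658, 0.0583 and 0.0895. Ntf5 (NT-4), the second ligand of TrkB, was at 1.38 ± 0.489 CPM in Ab-ASCs and 0.482 ± 0.296 CPM in PVASCs (SD, n = 3, adjusted p = 0.00579). Against Sub-ASCs its value in PVASCs missed the limit (log2 fold change -0.89, adjusted p = 0.0669). PVASC replicate 1, at 0.825 CPM, stood above the other PVASC libraries, at 0.305 and 0.318 CPM, and without it the log2 fold change of Ntf5 was -1.52 and passed the limit (adjusted p = 0.00558). It also passed without Ab-ASC replicate 1 (adjusted p = 0.0395). Pspn (persephin) had 4 to 16 reads per library and was not tested.

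Among the receptors and co-receptors, 9 of the 12 tested differed between PVASCs and Sub-ASCs, 8 of them higher in PVASCs, and 10 between Ab-ASCs and Sub-ASCs, 9 of them higher in Ab-ASCs. All 12 differed between PVASCs and Ab-ASCs, 5 higher and 7 lower in PVASCs. The first 2 shares, 75% and 83.3%, lay near the 70.4% and 75.3% of all genes, and the last stood beside 56.9%. RET, the kinase that signals for GDNF with GFRα1, was higher in Ab-ASCs, with 297, 287 and 308 reads (14.1 ± 1.63 CPM) against 124, 105 and 102 in Sub-ASCs (4.44 ± 0.768 CPM; SD, n = 3). Its log2 fold change was 1.67 (standard error 0.13, adjusted p = 1.36e-07). In PVASCs Ret was at 5.18 ± 0.0424 CPM (SD, n = 3), a difference from Sub-ASCs that missed the limit (adjusted p = 0.161) except without Sub-ASC replicate 1 (adjusted p = 0.0339). NCAM (Ncam1), a cell adhesion molecule that can also bind GDNF with GFRα1, went from 4.34 ± 0.657 CPM in Sub-ASCs to 62.8 ± 1.94 CPM in PVASCs and 169 ± 1.63 CPM in Ab-ASCs (SD, n = 3). The log2 fold change of Ncam1 for Ab-ASCs against Sub-ASCs was 5.29 (standard error 0.09, adjusted p = 1.23e-13).

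Within the GFRα family the co-receptors ran in different directions. Gfra2, the co-receptor of neurturin, was highest in PVASCs, at 6.34 ± 0.478 CPM, and lowest in Sub-ASCs, at 2.17 ± 0.358 CPM (SD, n = 3, adjusted p = 1.66e-06). Gfra4, the co-receptor of persephin, was highest in Sub-ASCs, at 11.5 ± 0.662 CPM, and at 4.33 ± 0.865 CPM in PVASCs (SD, n = 3, adjusted p = 1.59e-06). Gfra3 had at most 15 reads in a library, and Gfral had none in any.

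Relatives of sortilin were measured beside Sort1. Sorcs2, which also pairs with p75NTR, was at 48.2 ± 1.55 CPM in Ab-ASCs, 36.6 ± 1.93 CPM in PVASCs and 1.998 ± 0.106 CPM in Sub-ASCs (SD, n = 3). For Ab-ASCs against Sub-ASCs the log2 fold change of Sorcs2 was 4.59 (standard error 0.09, adjusted p = 2.69e-13). Sorcs1 was higher in PVASCs, at 3.72 ± 0.373 CPM, than in Sub-ASCs (log2 fold change 3.65, standard error 0.27, adjusted p = 8.24e-08) and Ab-ASCs (3.41, standard error 0.27, adjusted p = 5.95e-07). Sorl1 was likewise highest in PVASCs, with 100 to 125 reads per library, against 22 to 31 in Ab-ASCs and 5 to 24 in Sub-ASCs. Sorcs3 had at most 1 read in a library. Lingo1 and Rtn4r, which form the Nogo receptor complex with p75NTR, were both higher in Ab-ASCs than in Sub-ASCs, with log2 fold changes of 2.05 (adjusted p = 2.06e-08) and 1.11 (adjusted p = 0.000871). Lingo1 was higher still in PVASCs, at 26.0 ± 1.53 CPM (SD, n = 3). Nradd, a p75NTR-like gene, rose from 25.0 ± 2.86 CPM in Sub-ASCs to 50.7 ± 2.86 CPM in Ab-ASCs (SD, n = 3, adjusted p = 2.87e-07). Sdc3, a heparan sulfate proteoglycan that binds GDNF, was highest in PVASCs, at 186 ± 3.46 CPM (SD, n = 3).

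**Figure D3:**
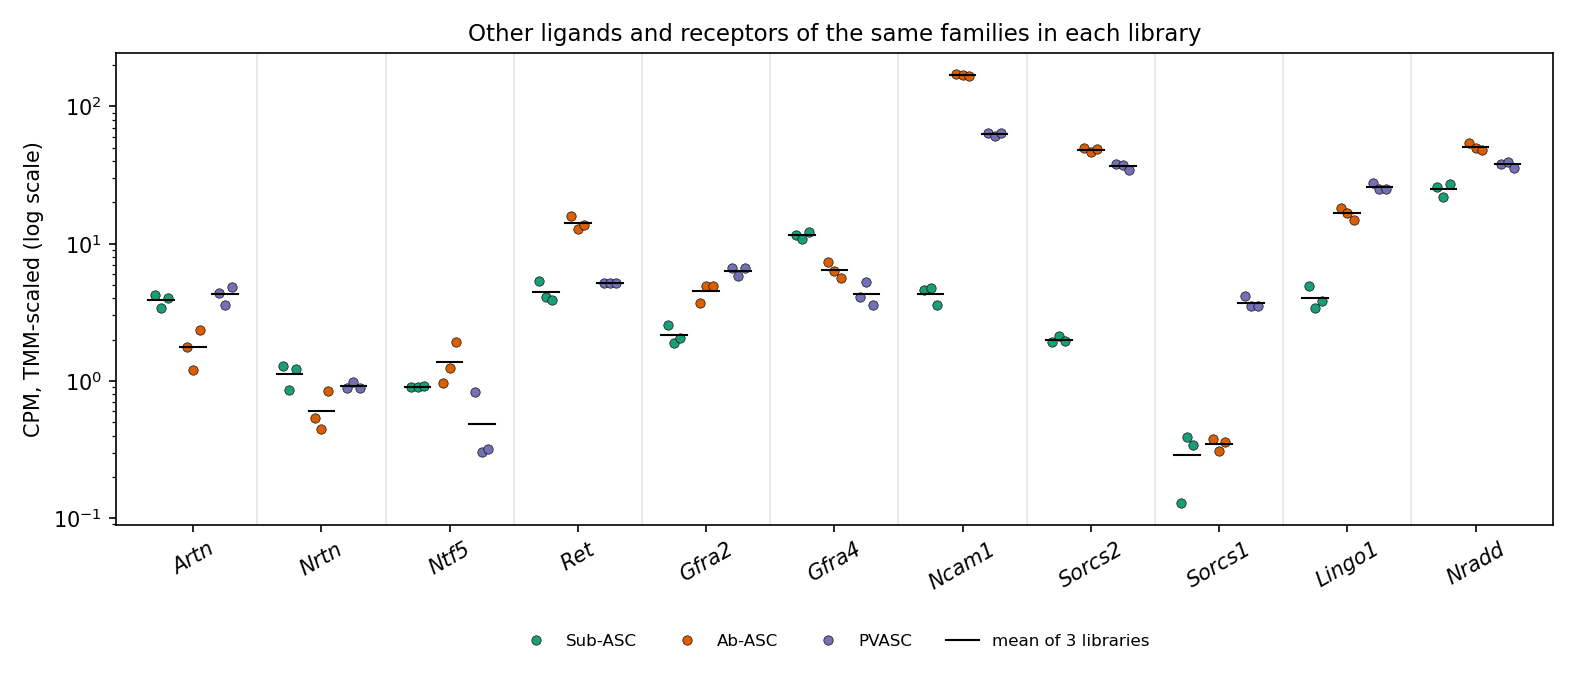
CPM on a log axis for 11 other ligands and receptors of these families, with a point for each library and bars at the group means. Ncam1 and Sorcs2 are low in Sub-ASCs, at 4.34 and 1.998 CPM on average, and Sorcs1 is above 1 CPM in PVASCs alone.

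The adaptors of p75NTR and the Trk receptors were mixed in direction. Of the 25 adaptors tested, 22 differed between PVASCs and Sub-ASCs, 11 in each direction. For PVASCs against Ab-ASCs it was 17, and for Ab-ASCs against Sub-ASCs 22. These shares of 88.0%, 68.0% and 88.0% stood beside 70.4%, 56.9% and 75.3% of all genes. The largest changes were in Dok5, Ripk2 and Bex3. Dok5, a docking protein of RET and TrkB, was at 52.5 ± 6.24 CPM in Ab-ASCs and 7.44 ± 1.04 CPM in Sub-ASCs (SD, n = 3, adjusted p = 3.55e-10). Ripk2, a kinase that binds p75NTR, was at 130 ± 12.4 CPM in Ab-ASCs and 23.9 ± 1.19 CPM in Sub-ASCs (SD, n = 3, adjusted p = 2.67e-11). Bex3, an X-linked p75NTR-binding protein, was highest in PVASCs, at 85.0 ± 2.13 CPM against 28.9 ± 3.23 CPM in Sub-ASCs (SD, n = 3, adjusted p = 7.03e-09).

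Genes that process the ligands or shed the receptors differed in 17 of 18 cases for PVASCs against Sub-ASCs, 6 higher and 11 lower, in 17 for PVASCs against Ab-ASCs and in 11 for Ab-ASCs against Sub-ASCs. These are 94.4%, 94.4% and 61.1%, beside 70.4%, 56.9% and 75.3% of all genes. Pcsk5, a proprotein convertase, was at 130 ± 2.48 CPM in Sub-ASCs, 30.7 ± 2.22 CPM in Ab-ASCs and 3.05 ± 0.268 CPM in PVASCs (SD, n = 3). Its log2 fold change for PVASCs against Sub-ASCs was -5.42 (standard error 0.09, adjusted p = 6.44e-14). Mmp3, a matrix protease, was at 5062 ± 140.2 CPM in Sub-ASCs and 294 ± 0.364 CPM in PVASCs (SD, n = 3, adjusted p = 2.12e-14).

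Early response genes, which Trk and RET signalling induces along with FGF and serum, were higher outside Sub-ASCs. Of 11 tested, 10 were higher and 1 lower in PVASCs than in Sub-ASCs, and 10 were higher in Ab-ASCs than in Sub-ASCs. For PVASCs against Ab-ASCs 9 were lower in PVASCs. Of all genes, 34.7% were higher in PVASCs and 37.0% in Ab-ASCs than in Sub-ASCs, and 32.1% were lower in PVASCs than in Ab-ASCs. Etv4, an ETS factor, was at 50.8 ± 4.30 CPM in Ab-ASCs and 41.9 ± 0.822 CPM in PVASCs against 1.52 ± 0.291 CPM in Sub-ASCs (SD, n = 3), and the log2 fold change for Ab-ASCs against Sub-ASCs was 5.07 (standard error 0.12, adjusted p = 1.34e-12). Arc and Vgf had log2 fold changes of 3.89 (adjusted p = 5.96e-10) and 3.61 (adjusted p = 3.25e-10) in the same pair. The dividing cell markers moved in the same direction, 8 of 8 higher in PVASCs and in Ab-ASCs than in Sub-ASCs, and their part in these differences was not tested.

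Ngfr also marks Schwann cells, and a list of 11 Schwann cell and glial genes was read beside it. In PVASCs 8 of the 10 tested were higher than in Sub-ASCs and 1 was lower, and 7 were higher than in Ab-ASCs. Of all genes, 34.7% were higher and 35.7% lower in the first pair, and 24.7% were higher in the second. Sox10, the transcription factor that defines Schwann cells, had 370, 384 and 360 reads in PVASCs, 12, 23 and 13 in Sub-ASCs and 5, 9 and 2 in Ab-ASCs. It was at 11.9 ± 0.946 CPM in PVASCs and 0.638 ± 0.230 CPM in Sub-ASCs (SD, n = 3, log2 fold change 4.21, adjusted p = 2.19e-09). Cdh19, a cadherin of Schwann cell precursors, had a log2 fold change of 3.29 for PVASCs against Sub-ASCs (adjusted p = 3.09e-08) and had 0 reads in every Ab-ASC library. Mbp, a myelin protein gene, went the other way, with a log2 fold change of -1.57 (adjusted p = 9.56e-07). The summed level of the 11 genes was 59.4 to 66.6 CPM in PVASCs, 18.4 to 20 CPM in Sub-ASCs and 20.8 to 22.4 CPM in Ab-ASCs. In Ab-ASCs most of the sum was Prx, at 14.7 CPM, and 7 of the 10 genes tested were lower and 2 higher (Prx and Fabp7) than in Sub-ASCs, beside 38.3% and 37.0% of all genes. Ngfr was 3.50-fold higher in Sub-ASCs than in PVASCs while Sox10 was lower there. The part of Schwann cell transcripts in the Ngfr of PVASCs was not tested.

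**Figure D4:**
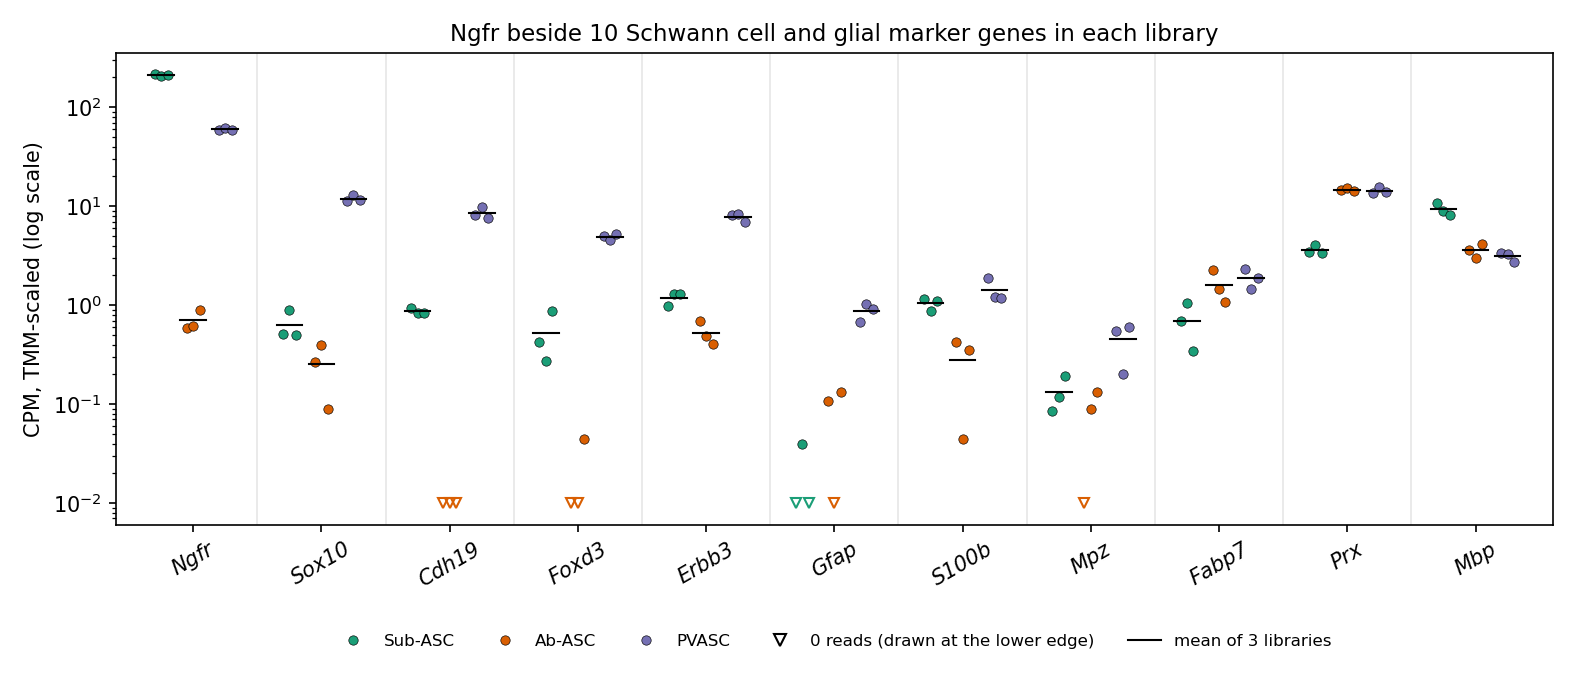
CPM on a log axis for Ngfr and 10 of the 11 Schwann cell and glial marker genes, with a point for each library, bars at the group means and open triangles for 0 reads. Ngfr is highest in Sub-ASCs, whereas Sox10, Cdh19, Foxd3 and Erbb3 are highest in PVASCs.

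Of 14 neuronal marker genes, Th was at 0 in every library and Dbh had at most 1 read. The list summed to 18.7 to 19.2 CPM in Sub-ASCs, 68.2 to 75.2 CPM in Ab-ASCs and 107 to 113 CPM in PVASCs, most of it from Tubb3. Of the 7 with enough reads, 6 were higher and 1 lower (Syp) in PVASCs than in Sub-ASCs, and 4 were higher and 2 lower in PVASCs than in Ab-ASCs. In Ab-ASCs 4 were higher and 1 lower than in Sub-ASCs. Of all genes, 70.4%, 56.9% and 75.3% differed in these pairs. Nefm, a neurofilament gene, was at 0.405 CPM in Sub-ASCs, 24.2 CPM in Ab-ASCs and 3.62 CPM in PVASCs, and Stmn2 was at 0.746, 0.770 and 3.22 CPM. Mesothelial markers, 10 in all, summed to 2.75 to 2.97 CPM in Sub-ASCs, 126 to 135 CPM in Ab-ASCs and 49.8 to 51.5 CPM in PVASCs, so that the order of depots was the reverse of that of Ngfr, Gfra1 and Ntf3. Mural markers, 10 genes, summed to 226 to 231 CPM in Sub-ASCs, 4310 to 5330 CPM in Ab-ASCs and 2800 to 2960 CPM in PVASCs. Outside Sub-ASCs most of this came from Acta2. Single mural markers ran both ways. In PVASCs 8 were higher and 2 lower than in Sub-ASCs, beside 34.7% and 35.7% of all genes. In Ab-ASCs 5 were higher and 4 lower than in Sub-ASCs, beside 37.0% and 38.3%. For PVASCs against Ab-ASCs 4 were higher and 4 lower, beside 24.7% and 32.1%. Abcc9 was at 102.7 CPM in Sub-ASCs and at 0.490 and 0.501 CPM in Ab-ASCs and PVASCs. Endothelial markers, 8 genes, summed to 806 to 807 CPM in PVASCs, where Bdnf was highest, against 189 to 204 CPM in Sub-ASCs and 68.2 to 69.8 CPM in Ab-ASCs. Tek, the angiopoietin receptor gene, ran the other way, at 46.0 CPM in Sub-ASCs and 14.8 CPM in PVASCs. The 8 blood cell markers summed to 208 to 210 CPM in Sub-ASCs, 281 to 368 CPM in Ab-ASCs and 280 to 288 CPM in PVASCs, most of it from Lyz2. Of the 6 tested, 2 (Lyz2 and Csf1r) were higher and 4 lower in PVASCs than in Sub-ASCs, and likewise in Ab-ASCs. Of all genes, 34.7% were higher and 35.7% lower in PVASCs, and 37.0% and 38.3% in Ab-ASCs. Ptprc (CD45), the marker of all white blood cells, was highest in Sub-ASCs, at 8.93 CPM against 1.41 CPM in Ab-ASCs and 2.81 CPM in PVASCs, and Cd3e had 0 reads outside Sub-ASCs. The part of such cells in the levels of the 8 genes was not tested.

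The genes with the most similar profiles were ranked by the root mean square difference of log2 CPM over the 9 libraries, each gene centred on its mean, among 13874 protein-coding genes. Nearest to Ngfr were Masp1 (0.352), a protease of the lectin pathway of complement, the T-box factor Tbx5 (0.366) and the homeobox factor Lhx8 (0.720). Masp1 was at 155 ± 5.01 CPM in Sub-ASCs, 0.443 ± 0.0758 CPM in Ab-ASCs and 26.4 ± 0.781 CPM in PVASCs (SD, n = 3), and Tbx5 had no read in Ab-ASCs. Bdnf lay nearest to Prl2c2 (0.196), Lrrtm2 (0.308), a synaptic adhesion gene, and Dlk1 (0.363), which holds preadipocytes undifferentiated. Dlk1 was at 25.5 ± 2.13 CPM in PVASCs, 3.75 ± 0.0949 CPM in Ab-ASCs and 0.467 ± 0.00829 CPM in Sub-ASCs (SD, n = 3). Prl2c2 has near-identical copies, so its count is uncertain.

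Next to Gfra1 were Ifit3b (0.248), Kng2 (0.288) and Akr1c14 (0.302), and next to Ntf3 were Clec14a (0.266), an endothelial lectin, AW551984 (0.266) and Tspan11 (0.311). Ntrk2 had CR974586.3 (0.256), the melanocyte antigen gene Mlana (0.283) and the interferon-inducible Ifi203 (0.284) nearest to it. Of these, Ifit3b, Kng2, Akr1c14 and Ifi203 belong to families with close copies and their counts may share reads. For Sort1, whose range over the libraries was only 0.81 in log2 CPM, they were Plcg1 (0.0744), itself a Trk adaptor, Tbc1d24 (0.0784) and D5Ertd579e (0.0789). Gdnf lay nearest to the amino acid transporter Slc36a1 (0.0555), the chemokine Ccl7 (0.0629) and the NF-κB subunit Relb (0.0804). Among the 7 members that passed the count filter, Ntf3 and Gfra1 were the closest pair, at 0.584, and Bdnf and Ntrk2 the farthest apart, at 5.20. With 0 reads in Ab-ASCs, the distances of Ntf3 depend on the prior count of 2. The same holds for those of Tbx5, CR974586.3 and Mlana, also at 0 there, and of Lhx8, at 0.0149 CPM in Ab-ASCs.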

How the data were processed

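Bulk mRNA of cultured ASCs of 3 fat depots of C57BL/6 mice, 3 libraries per depot, was sequenced. The authors deposited raw read counts per gene with listed gene lengths. Per the labels, CASAVA 1.8, Bowtie 0.12.2 and featureCounts 1.5.0-p3 were among the tools, and mm8 and mm10 are both named. Gene coordinates equalled GENCODE M21 on GRCm38 for 98.3% of genes and for all 8 members. The NEBNext Ultra kit does not mark strand by itself, and the counting setting is not given in the sources used here.

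Genes passing filterByExpr were scaled by TMM and tested by quasi-likelihood over all 9 libraries without covariates (R 4.3.3, edgeR 4.0.16, with limma 3.58.1), with Benjamini-Hochberg adjustment over 16526 genes and a limit of 0.05. The fit was tested on simulated counts. FPKM used library totals. Similarity used log2 CPM with a prior count of 2. The members and gene lists were chosen with earlier results of these data known. Genes named are the 8 members, all other ligands and receptors, the 3 genes with the largest change past the limit in each remaining partner list, the 3 most similar genes per member, and marker genes where their list moved with a member. Some genes of these lists are counted with their list but are not reported here by name. Alternatives were DESeq2 1.42.0, RLE size factors, 2 other count filters (none, or 10 reads in each library), fits restricted to a pair of groups, the replicate number as a block, a fold-change limit and leaving out each library. Figures were drawn with matplotlib 3.10.9.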

Additional observations from a re-analysis of the deposited data

How the results depend on the processing

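Under 19 settings 115 results gave 1673 recomputed values, and 1640 of them kept their direction and side of the limit, or moved by less than the replicate spread or 1.5 times. Requiring a log2 fold change of 1 or more left 25 partner genes for PVASCs against Sub-ASCs (17 higher, 8 lower), 17 for PVASCs against Ab-ASCs (4 higher, 13 lower) and 32 for Ab-ASCs against Sub-ASCs (8 lower), by its own construction. No member changed direction where it had been past the limit. Ntf3, with 0 reads in Ab-ASCs, was at 6.9 for PVASCs against Ab-ASCs and at -7.72 for Ab-ASCs against Sub-ASCs with DESeq2, and at -8.41 in the latter when only those groups were fitted. Gdnf was at -1.28 for PVASCs against Ab-ASCs when only those groups were fitted. The cause was not tested. The filter of 10 reads in every library gave no value for Ntf3.

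Leaving out 1 library at a time, the log2 fold change of Ngfr ran from 6.3 to 6.61 for PVASCs against Ab-ASCs and from -8.42 to -8.1 for Ab-ASCs against Sub-ASCs, and that of Ntf3 from 7.6 to 7.78 for PVASCs against Ab-ASCs. Differences that were not past the limit changed sign for Rtn4r (PVASCs against Sub-ASCs, -0.005 without Sub-ASC replicate 3, to 0.50) and for Sorcs1 (Ab-ASCs against Sub-ASCs, -0.089 without Sub-ASC replicate 1, to 0.52). Ntf5 also passed the limit for PVASCs against Sub-ASCs without the count filter (adjusted p = 0.0312, edgeR) and with only those groups fitted (adjusted p = 0.039, edgeR). Nrtn passed it for PVASCs against Ab-ASCs without Ab-ASC replicate 3 (adjusted p = 0.043, edgeR), and Sdc3 for Ab-ASCs against Sub-ASCs without Ab-ASC replicate 2 (adjusted p = 0.0411, edgeR). By Pearson correlation in place of the root mean square difference, 1 of the 21 most similar genes was kept, so those names depend on the measure.

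The labels number the replicates in each group and do not say whether the numbers pair libraries across groups. Same-numbered libraries did not deviate together over all genes (correlations from -0.0514 to 0.095). With 3 libraries per group, such deviations cannot show whether same-numbered libraries shared mice or a preparation. With the replicate block, the partner genes past the limit numbered 61 for PVASCs against Sub-ASCs (60 without it). They numbered 57 for PVASCs against Ab-ASCs (58 without it). For Ab-ASCs against Sub-ASCs there were 56 in either fit. The log2 fold change of Ngfr was then -1.81, 6.4 and -8.21 in the same order, and no partner gene named here changed its call. Depth limits Ntrk3 and the low ligands, whose differences rest on few reads.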
